A study of Mus musculus with 2 samples.

Results

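Tight peak pairs are neighbouring p53-bound regions whose midpoints lie within 2000 bases of each other, and 594 of the 7893 peaks of the deposited list met this rule in mouse kidney. Members were chosen by measured peak positions alone: a peak was a member if its nearest other peak on the same chromosome, midpoint to midpoint, lay no farther than that. The members formed 285 separate runs, of which 263 held 2 peaks, 20 held 3 and 2 held 4. Within them, 286 pairs consisted of peaks that were each the nearest of the other, and the values on pairs below are for these. The share of members, 7.53% of all peaks, is fixed by the rule and is given as a description.

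The tissue was wild-type kidney of the C57BL strain at E15.5, in which E stands for embryonic day. The p53 group was 1 library from chromatin immunoprecipitation followed by sequencing, in which formaldehyde fixes proteins to DNA and an antibody, here sc-6243 against p53, recovers the fragments they hold. The other group was 1 library of input DNA from the same stage, strain and genotype, prepared with no antibody, and its own signal was not analysed here. Whole kidney holds many cell types, so a pair of peaks may come from different cells, and this was not tested. How many animals were pooled is not given in the sources used here.

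p53 is a transcription factor that is activated by stress and controls genes of cell cycle arrest, apoptosis, DNA repair and metabolism. It binds DNA as a tetramer, and its response element consists of a pair of half-sites that lie next to each other or are separated by a short spacer. Several response elements can lie near one gene, in the promoter and in the first intron. In the developing kidney, p53 is known to take part in the balance between renewal and differentiation of nephron progenitors.

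Distances, widths and scores all come from the single peak call that the rule used, so none of them was tested, and every comparison below is a description. The score is the authors' own value, 1 per peak. The list does not state its scale, and a ratio of scores is not a ratio of bound DNA. The lowest score listed is 60.01 and the highest 3100. Intervals are exact at the 95% level, cover counting error only and treat peaks and pairs as independent, which neighbouring ones are not. A tight peak comes with its partner by the rule, so intervals on the shares of tight peaks by chromosome are too narrow.

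In most tight pairs the facing edges lay close together relative to the widths of the peaks. The median distance between midpoints was 1139 bases (interval 1103 to 1208, n = 286 pairs), with quartiles of 928 and 1419 and extremes of 410 and 1990. The median gap between the facing edges was only 146.5 bases (interval 117 to 178), with quartiles of 52.3 and 424 and extremes of 1 and 1495. The gap therefore took up a median of 6.95% of the stretch from the outer edge of one peak to the outer edge of the other. In 247 of 286 pairs (86.4%, interval 81.8 to 90.1) the gap was shorter than the narrower of its peaks. Among the 429 pairs of peaks whose nearest neighbour lay at over 2 to 10 kb, the gap was shorter in 23 (5.36%), and its median was 4731 bases. This contrast follows in large part from the rule, because the gap is the midpoint distance less the mean width. Whether a tight pair is a single bound region listed as 2 peaks or holds separate sites was not tested.

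Counted over every neighbouring couple of peaks, short gaps were the most frequent. No peaks in the list overlapped, so midpoints could not lie closer than the mean of the widths, and only 1 couple lay under 500 bases apart. From 500 to below 1000 bases there were 96 couples, from 1000 to below 1500 there were 139 and from 1500 to below 2000 there were 73. Beyond 2 kb the number became level, with 29 to 42 couples in each step of 500 bases up to 10 kb and a mean of 34.7. By gap, 122 couples had fewer than 100 bases between their edges, 50 had 100 to below 200 and 38 had 200 to below 300. From 1 to 5 kb the mean was 7.23 couples in each step of 100 bases, and the most in any step was 14.

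**Figure D1:**
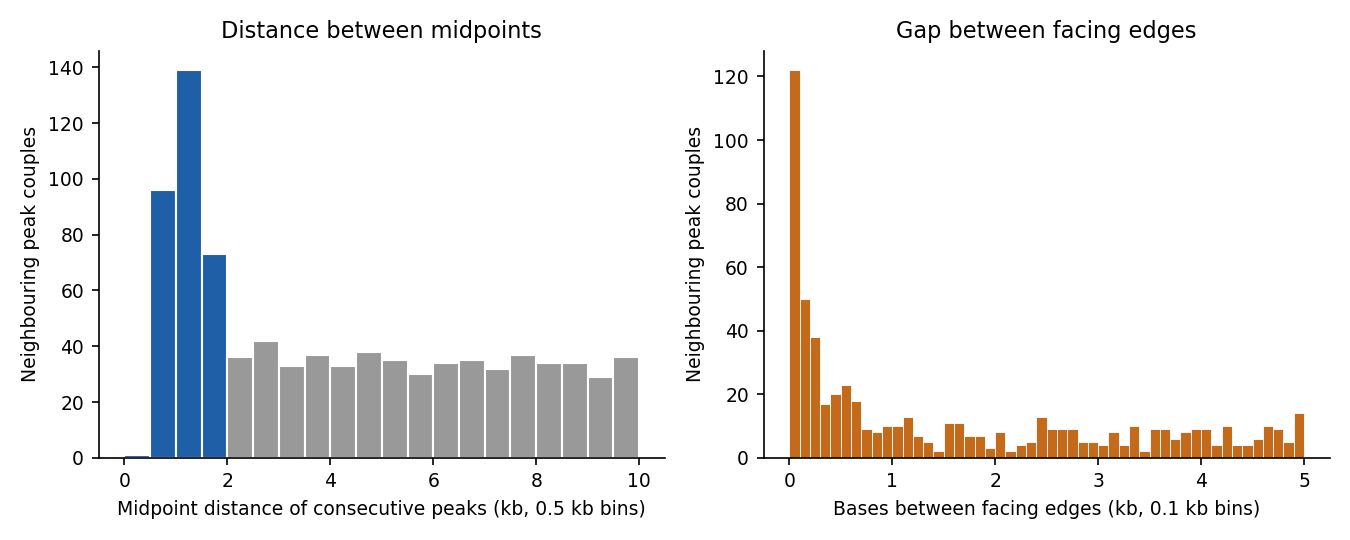
Numbers of neighbouring peak couples by the distance between their midpoints in 0.5 kb bins (left, couples under 2 kb in blue) and by the bases between their facing edges in 0.1 kb bins (right). Counts reach 139 couples at 1 to 1.5 kb and fall to 29 to 42 beyond 2 kb, and the first gap bin holds 122 couples.

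Of the 122 couples with a gap under 100 bases, 120 fell within the 2000 base limit. The other 2 were missed because 1 of their peaks was broad. On chromosome 13, a peak of 1009 bases (23851820 to 23852828, score 64.4) was followed after 1 base by one of 3214 bases (23852830 to 23856043, score 339). On chromosome 17, a peak of 1244 bases (34255751 to 34256994, score 317) was followed after 47 bases by one of 3174 bases (34257042 to 34260215, score 660). These couples were picked out after their values were seen.

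The smallest gaps show how closely edges can meet. Positions are in the mm9 build, counted from 1. On chromosome 11, a peak at 77976994 to 77978681 with a score of 215 and one at 77978683 to 77979547 with a score of 152 were separated by 1 base. On chromosome 7, peaks at 133645267 to 133646665 (score 175) and 133646667 to 133647751 (score 528) were also separated by 1 base. Next came gaps of 3 bases on chromosome 15, where the peak at 81352541 to 81353183 scored 73.3 and that at 81353187 to 81354189 scored 96.7. On chromosome 3 the gap was again 3 bases, between 94640834 to 94641825 (score 89.2) and 94641829 to 94642995 (score 78.8). Gaps of 4 bases followed in 2 pairs, on chromosome 12 between 82046112 to 82046855 (score 62.8) and 82046860 to 82047448 (score 69.3), and on chromosome 3 between 95462094 to 95463086 (score 142) and 95463091 to 95463858 (score 112). These 6 pairs ranged from faint to strong, so a near-zero gap was not restricted to one level of score.

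Across the gap sizes the intervals for the balance of scores inside a pair overlapped. The 67 pairs with a gap under 50 bases had a median score ratio, higher over lower, of 1.42 (interval 1.27 to 1.83). The 98 pairs at 50 to below 200 bases had 1.48 (1.38 to 1.66), the 60 at 200 to below 500 had 1.52 (1.35 to 1.79) and the 61 at 500 bases or more had 1.51 (1.32 to 1.69). The fainter peak had a median score of 78.8 in the first of these classes and 69.2 (interval 66.8 to 73.6) in the last. Its partner had medians of 129 (113 to 158) and 119 (103 to 136), and for both peaks the intervals of the first and last class overlapped. At 50 to below 200 bases the fainter peak had a median of 78.6 (75.36 to 82.84), and this interval did not overlap that of the last class. At 200 to below 500 it had 76.7 (71.62 to 82.15), which did overlap. These differences were not tested. Across the 286 pairs, Spearman's rho between gap and mean width was -0.10, while rho between midpoint distance and mean width was 0.60. The second value follows in part from the geometry, because a midpoint distance is the mean width plus the gap.

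As a group the tight peaks lay near the middle of the list in score and width. Their median score was 92.6 (interval 89.2 to 98.8, n = 594), with quartiles of 72.8 and 132. The 968 peaks with a nearest neighbour at over 2 to 10 kb had a median of 104 (99.7 to 110), and the 6331 peaks with none within 10 kb had 96.1 (94.6 to 97.9). A score of at least 100 was reached by 266 tight peaks (44.8%, interval 40.7 to 48.9), beside a background of 47.6% of all peaks and 52.9% of those at over 2 to 10 kb. A score of at least 300 was reached by 22 tight peaks (3.70%, interval 2.34 to 5.55), beside a background of 4.87% and a share of 7.85% (6.24 to 9.73) at over 2 to 10 kb. The shares of tight peaks were thus close to the background of the whole list, and the shares at 2 to 10 kb were higher in value than both, a difference that was not tested. The distance limit leaves out broad neighbours, and the higher-scoring peak was the wider in 68.3% of pairs at over 2 to 10 kb. The lower shares of tight peaks than at 2 to 10 kb may thus be set in part by the rule.

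The median width of tight peaks was 862 bases (interval 821 to 896), next to 949.5 (922 to 973) at over 2 to 10 kb and 858 (848 to 870) beyond 10 kb. The distance limit keeps broad neighbours out, since a pair with a mean width of 2000 bases or more cannot meet it. Of the 429 pairs at over 2 to 10 kb, 10 were that broad. Taken as single stretches, the 285 runs had a median length of 2134 bases (2049 to 2240), with extremes of 783 and 5800. Peaks outside any run rarely reached that length: 140 of 7299 (1.92%) were as wide as the median run. Peaks covered 86.4% of the summed length of the runs.

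Scores inside a tight pair were moderately unequal. The higher score was 1.49 times the lower in the median pair (interval 1.42 to 1.60), with quartiles of 1.18 and 2.10. In pairs at over 2 to 10 kb the median ratio was 1.61 (1.53 to 1.70), and in the 1836 mutual nearest pairs beyond 10 kb it was 1.49 (1.46 to 1.54). A ratio below 1.2 was seen in 80 tight pairs (28.0%, interval 22.8 to 33.6), a ratio of 2 or more in 85 (29.7%, 24.5 to 35.4) and of 5 or more in 9 (3.15%). The floor of the list limits these ratios, because a partner scoring below 60.01 would not be listed. In 105 pairs (36.7%) the fainter peak scored below 70, close to that floor.

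The scores of the left and the right peak, in genome order, were nearly unrelated. Spearman's rho was -0.04 over 286 tight pairs, 0.02 over 429 pairs at over 2 to 10 kb and 0.04 over 1836 pairs beyond 10 kb, all from the same library. Widths were weakly related, with rho of 0.16, 0.12 and 0.08 in the same order. The peaks of a tight pair both scored at least 100 in 52 cases (18.2%, interval 13.9 to 23.1), 1 of them did in 150 and neither did in 84. At over 2 to 10 kb both did in 118 pairs (27.5%, 23.3 to 32.0). No tight pair had both scores at 300 or more, next to 6 pairs at over 2 to 10 kb (1.40%, interval 0.515 to 3.02) and 3 of 1836 beyond 10 kb (0.163%, 0.0337 to 0.477). The exact upper bound for 0 of 286 is 1.28%, so the intervals overlap. The distance limit leaves out broad couples, which may lower the tight counts at 100 and at 300. Among the 6 is the couple on chromosome 17 described above, with scores of 317 and 660 and 47 bases between its edges. A peak of 3174 bases put it beyond the limit, so the 0 is in part set by the rule.

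**Figure D2:**
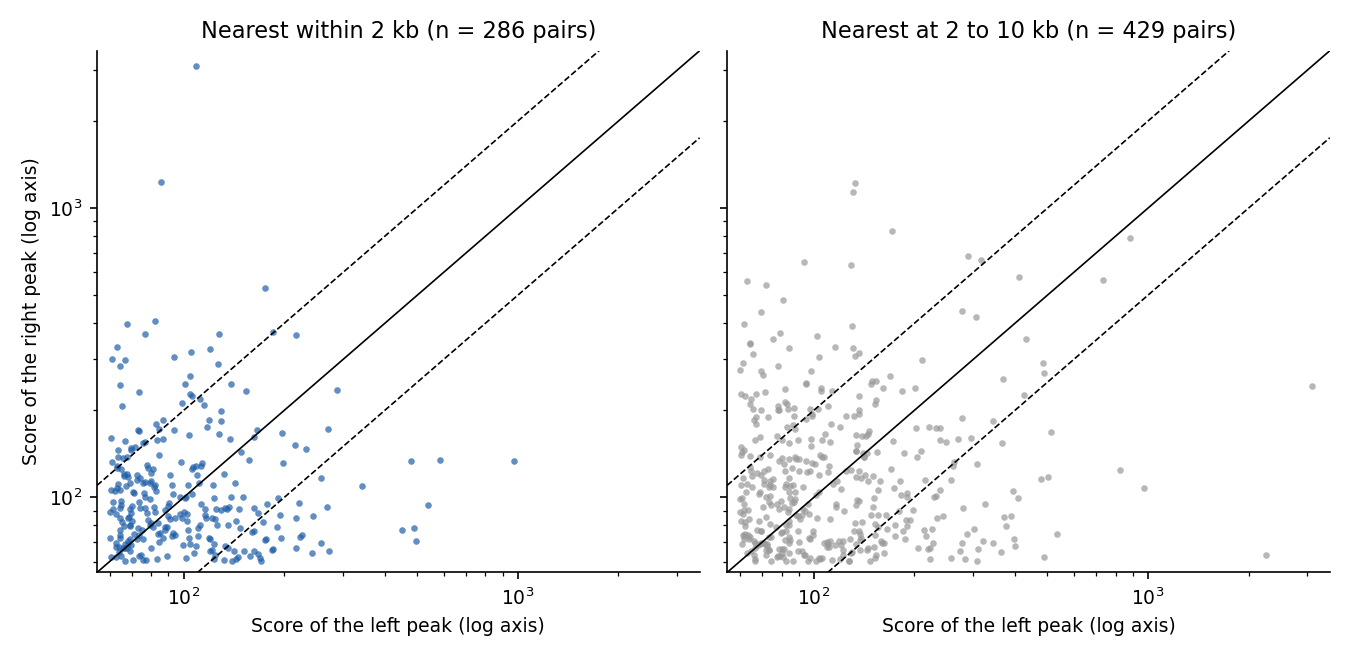
Score of the left peak against score of the right peak, both on log axes, for 286 tight pairs (left) and 429 pairs at over 2 to 10 kb (right). The solid line marks equal scores and the dashed lines a ratio of 2, and 85 tight pairs lie on or outside the dashed lines. No tight pair has both scores at 300 or more, and the distance limit leaves out broad couples.

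Widths were also moderately unequal. The wider peak was 1.38 times the narrower in the median tight pair (interval 1.32 to 1.47), beside 1.48 (1.40 to 1.53) at over 2 to 10 kb and 1.46 (1.43 to 1.50) beyond 10 kb. A ratio of 2 or more was found in 51 tight pairs (17.8%). The higher-scoring peak was also the wider in 198 of 286 pairs (69.2%, interval 63.5 to 74.5), and in 68.3% and 68.2% of pairs at over 2 to 10 kb and beyond. The left peak was the higher-scoring in 133 tight pairs (46.5%, 40.6 to 52.5) and the wider in 139 (48.6%, 42.7 to 54.6), and an even split lies inside both intervals.

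In 6 pairs both members were well above the floor, chosen as the pairs with the highest lower score. The first lay on chromosome 19, with a peak of 1824 bases at 5801059 to 5802882 (score 288) and one of 1587 bases at 5802921 to 5804507 (score 235), 38 bases apart. On chromosome 1, the peaks at 180266291 to 180267367 and 180267457 to 180268463 scored 217 and 363, 89 bases apart. On chromosome 15, those at 38228457 to 38229999 and 38230068 to 38231690 scored 185.5 and 374, 68 bases apart. The pair on chromosome 7 with a gap of 1 base was the next. On chromosome 2, peaks at 127950938 to 127952155 (score 271) and 127952729 to 127954020 (score 173) were 573 bases apart, and on chromosome 11 those at 29592485 to 29593215 (score 196) and 29593259 to 29594372 (score 167) were 43 bases apart. In 5 of these 6 pairs the gap was under 100 bases, and in 5 the widths differed by a ratio below 1.3. Over all tight pairs each of these held in 117 of 286 (40.9%). Neither limit was set in advance, and the contrast was not tested. The 21 tight pairs with a peak at 300 or more had a median gap of 138 bases, close to the 146.5 of all tight pairs.

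In the most unequal pairs, a strong peak stood beside one of much lower score. On chromosome 17, the peak at 27759643 to 27761289 scored 3100, and 40 bases before it lay one at 27758597 to 27759602 with a score of 109, a ratio of 28.5 as listed. The score of 3100 is the highest listed and is shared by 15 peaks, of which this was the 1 tight peak, so scores may be capped there and the ratio may be understated. On chromosome 1, the peak at 133423314 to 133425091 scored 1231 and its left neighbour at 133421737 to 133423266 scored 85.3, although their widths were 1778 and 1530 bases. On chromosome 18, a peak at 70727433 to 70728297 scored 972 and its right neighbour at 70728436 to 70729401 scored 133. The ratios were 7.04 on chromosome 10 (80728968 to 80729978, score 496, and 80730172 to 80731176, score 70.4) and 6.25 on chromosome 16 (23107089 to 23108826, score 489, and 23109308 to 23110050, score 78.3). In the pair on chromosome 10 the widths were 1011 and 1005 bases, so peaks of nearly the same width could stand far apart in score. Over the 21 tight pairs with a peak at 300 or more, the partner's score ranged from 62.9 to 217 with a median of 105, and the stronger peak was the wider in 14.

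At the other end, 3 pairs had almost identical scores. Those on chromosome 7 scored 66.8 (6680801 to 6681907) and 66.9 (6683010 to 6683608), although the widths were 1107 and 599 bases. On chromosome 5 the scores were 111.3 (124803196 to 124804359) and 111.7 (124804634 to 124805335), and on chromosome 2 they were 162.7 (30327200 to 30328763) and 162.0 (30329304 to 30330271). In all 3 the widths differed by a ratio above 1.6, so equal score did not go with equal width in them.

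Runs of more than 2 peaks were few. The 5 longest, ordered by number of peaks and then by length, began with 4 peaks over 5800 bases on chromosome 13 (63664063 to 63669862), with scores of 146, 91.3, 76.5 and 367 from left to right and gaps of 6, 294 and 140 bases. The other run of 4 covered 5780 bases on chromosome 8 (87184255 to 87190034), where the scores fell along the run from 96.2 and 94.3 to 74.4 and 63.0 and the widths from 1574 to 556 bases. A run of 3 on chromosome 12 (81212067 to 81217178) scored 126, 290 and 287. One on chromosome 1 (88421066 to 88425647) had a faint narrow peak of 597 bases (score 72.9) between peaks scoring 326 and 172. One on chromosome 10 (36856584 to 36861053) scored 192, 166 and 63.5. Among the 20 runs of 3, the middle peak was the highest-scoring in 7 and the lowest in 8.

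**Figure D3:**
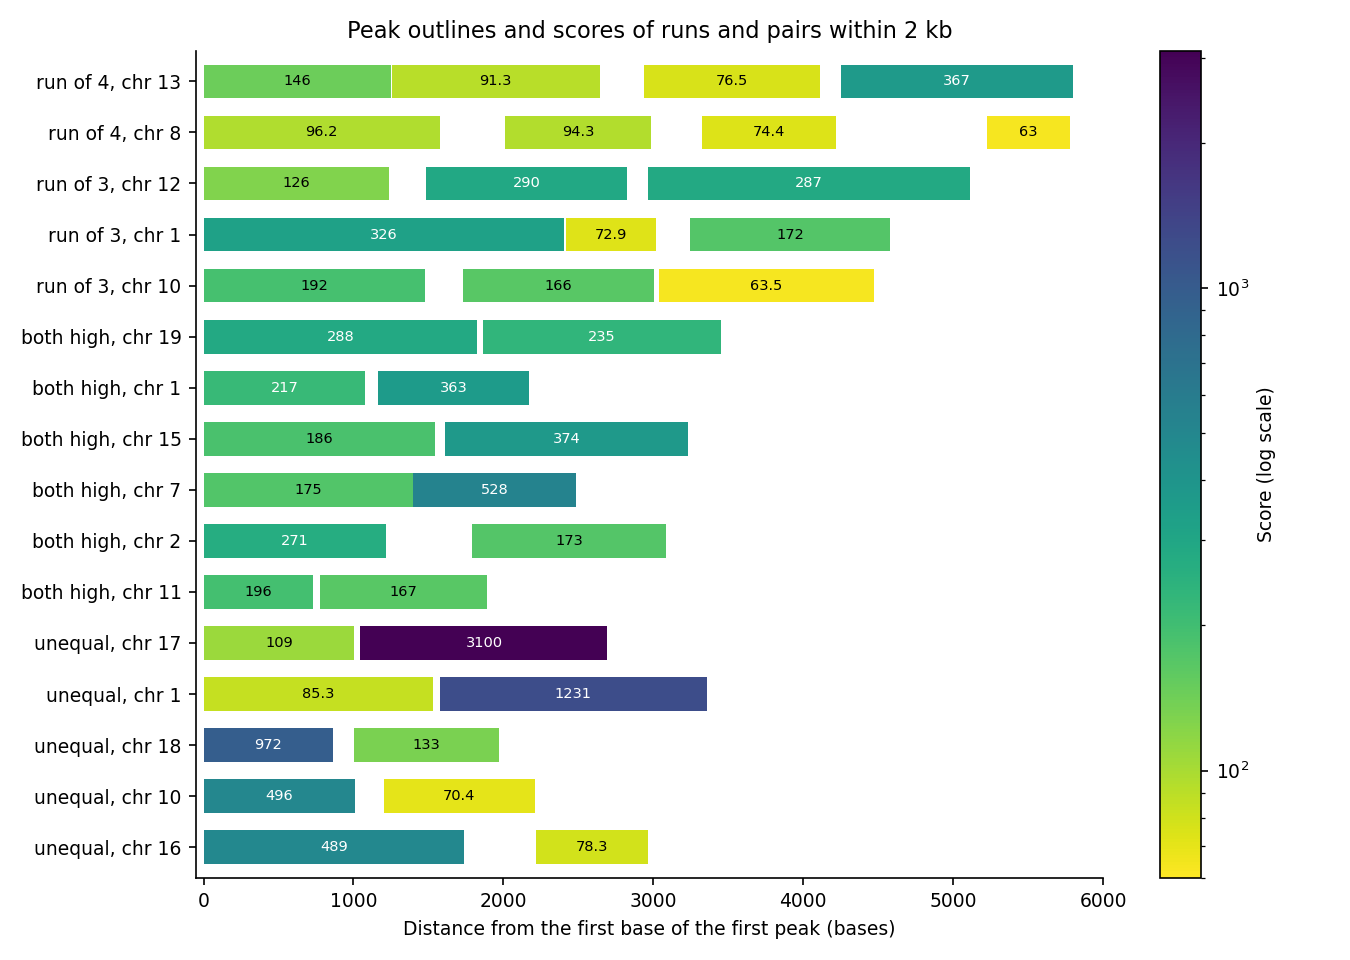
Outlines of the peaks in the 5 longest runs, the 6 pairs with the highest lower score ("both high") and the 5 with the largest score ratio ("unequal"), drawn to scale in bases from the first base of the first peak, with the score printed in each peak and coloured on a log scale. Gaps are short beside the peaks, and scores range from 63.0 to 3100.

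The pairs on either side of the limit are given as a description. Just inside 2000 bases lay pairs at 1990 bases on chromosome 5 (32435289 to 32436477, score 93.5, and 32437070 to 32438676, score 171), at 1976.5 on chromosome 4 (140256556 to 140257003, score 62.5, and 140258499 to 140259013, score 62.0) and at 1959 on chromosome 13 (31649855 to 31650418, score 64.7, and 31651714 to 31652477, score 72.4). Just outside lay pairs at 2008 bases on chromosome 2 (174120509 to 174121638, score 89.4, and 174122798 to 174123365, score 76.7), at 2009.5 on chromosome 7 (35437439 to 35438376, score 75.6, and 35438662 to 35441172, score 354) and at 2039 on chromosome 1 (75417592 to 75417918, score 62.0, and 75419554 to 75420034, score 74.7). Their gaps ran from 592 to 1495 bases inside and from 285 to 1635 bases outside. The pairs with the shortest distances were made of narrow peaks, as they had to be, because no peaks in the list overlapped. The closest, 410 bases apart on chromosome 8, had peaks of 318 bases (90482687 to 90483004, score 60.5) and 428 bases (90483042 to 90483469, score 62.3), and was named after its values were seen.

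Tight peaks were spread over all 20 chromosomes. Chromosomes 13, X and 3 had the highest shares and were not those with the highest shares of peaks at 2 to 10 kb. Chromosome 13 had the highest share, 47 of 322 peaks (14.6%, interval 10.9 to 18.9), followed by the X chromosome with 17 of 122 (13.9%, 8.33 to 21.4) and chromosome 3 with 42 of 380 (11.1%, 8.08 to 14.6). Chromosome 14 had the lowest, 14 of 287 (4.88%, 2.69 to 8.05), and the 19 autosomes together had 7.43%. On chromosome 3 only 13 peaks (3.42%, 1.83 to 5.78) had the nearest neighbour at over 2 to 10 kb, the lowest share of that class on any chromosome. Tight peaks outnumbered that class on 4 chromosomes, 3, 12, 13 and X. Chromosomes 11 and 17, with 21.0% and 20.9% of their peaks at over 2 to 10 kb, had 9.77% and 7.88% in tight pairs. The tight share of chromosome 11 was the next highest after that of chromosome 3, so this chromosome ranked high in both classes.

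**Figure D4:**
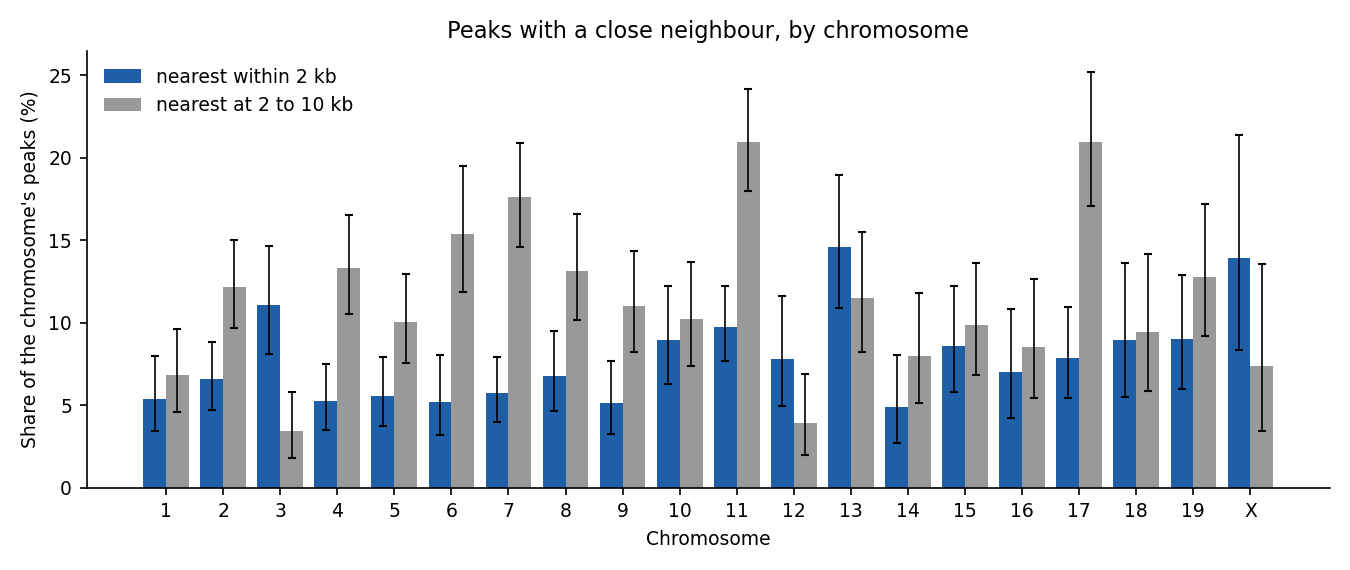
Share of each chromosome's peaks with the nearest neighbour within 2 kb (blue) and at 2 to 10 kb (grey), in percent. The exact 95% intervals cover counting error only and treat peaks as independent, so they are too narrow for tight peaks. Blue bars are highest on chromosomes 13 and X (14.6 and 13.9%) and exceed the grey ones on chromosomes 3, 12, 13 and X.

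The 17 tight peaks of the X chromosome formed 8 runs and had a median width of 613 bases, next to 611 over all X peaks and 731 to 1285 for tight peaks of the single autosomes. Their median gap was 336 bases, where the autosomal medians ran from 84 to 435.5. The X pair with the highest score, picked out after its values were seen, had 190 at 147954707 to 147955518 and 78.7 at 147955569 to 147956023, 50 bases apart, and no X pair had both scores at 100 or more. With 8 pairs, these values are imprecise.

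The density of peaks around tight pairs lay, in value, between that around peaks at over 2 to 10 kb and that around peaks beyond 10 kb. A tight peak had on average 9.23 other peaks at 10 to 500 kb, compared with 12.3 for peaks with the nearest neighbour at over 2 to 10 kb, 7.11 for peaks with none within 10 kb and 7.90 over all peaks. Another peak at 10 to 100 kb was found for 67.5% of tight peaks (interval 63.6 to 71.3), 86.4% (84.0 to 88.5) of those at over 2 to 10 kb, 65.6% of those beyond 10 kb and 68.3% of all. Measured from the outer edges, the next peak beyond a run lay at a median of 43.8 kb (interval 31.9 to 60.2). The corresponding value for a peak outside any run was 48.7 kb (46.7 to 50.8). A further peak within 10 kb of their edges was present for 58 of 285 runs (20.4%, 15.8 to 25.5) and for 1077 of 7299 other peaks (14.8%, 13.9 to 15.6).

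Most runs were the single run of their 1 Mb window, and most had another peak within 100 kb. A peak outside the run lay within 100 kb of its edges for 198 of 285 runs (69.5%, interval 63.8 to 74.8). Over all peaks, 68.3% had another at 10 to 100 kb between midpoints, a similar value on a measure that leaves out nearer peaks. Windows that held a tight peak had a median of 7 peaks, beside 3 over all windows with a peak. A tight peak needs a close partner, so such windows rarely hold a lone peak and the contrast is in part fixed by the rule. Of the 238 windows of 1 Mb that held a tight peak, 201 held 1 run, 32 held 2 and 5 held 3 or more. Only 6 windows held 6 or more tight peaks, and together they held 52 of 594 (8.75%). These windows were picked out after their values were seen. The fullest was on chromosome 13 from 23 to 24 Mb, where 12 of 31 peaks lay in 5 runs, with scores from 66.3 to 277. Chromosome 10 from 80 to 81 Mb held 10 of 38 in 5 runs, chromosome 11 from 69 to 70 Mb held 10 of 39 in 4 runs and chromosome 8 from 87 to 88 Mb held 8 of 21 in 3 runs. On chromosome 13 from 63 to 64 Mb, 6 of 10 peaks were tight and none was at over 2 to 10 kb, and this window held the run of 4 peaks over 5800 bases. On chromosome 17 from 27 to 28 Mb, 6 of 22 peaks were tight, among them the peak with a score of 3100 described above.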

How the data were processed

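Peaks were called by the submitters with MACS on the mm9 build, per the submitters' processing notes and the file header. Not given in the sources used here: the aligner, the handling of duplicate reads, the role of the input library, and the version and settings of MACS. Such settings can change where one peak ends and the next begins, and so the gaps measured here. The deposited list gives chromosome, start, end, name and the authors' score for each peak, and no read counts, so depth is unknown. Starts were converted to 1-based positions. Neighbours were found by midpoint on each chromosome with pandas 2.3.3 and numpy 2.4.6 in Python 3.11.15. With scipy 1.17.1, shares were given Clopper-Pearson intervals and medians exact order-statistic intervals. Neighbour finding was tested on simulated data. The gene and sequence tables at hand are of GRCm38.p6, a different build, and were not used here, so peaks were not assigned to genes and their sequences were not read. Regions were named by rule: the 6 pairs with the highest lower score, the 5 smallest gaps, the 5 largest and 3 smallest score ratios, the 5 longest runs and 3 pairs on each side of 2000 bases; the text marks the few others, which were picked after their values were seen. The second gap of 4 bases was added as a tie. The members and rules were chosen with earlier results of these data known. With 1 library per group, no test was made.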

Additional observations from a re-analysis of the deposited data

How the results depend on the processing

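Of 30 alternative values, 23 stayed within the interval of the reported one and 7 did not. The share of tight peaks was 3.11% among peaks scoring at least 100, 2.45% within 1000 bases and 9.36% within 3000 bases. A shorter or longer distance limit cannot but lower or raise this share, and a score filter also removes partners. Among peaks scoring at least 100, with 57 pairs left, the median midpoint distance was 1264.5 bases, the higher-scoring peak was the wider in 59.6% of pairs (interval 45.8 to 72.4) and the median score was 142, which the filter itself raises. The median score was 84.5 within 1000 bases, a limit that leaves out more of the broad couples. Leaving out the widest 1% of peaks, counting every consecutive couple, keeping only runs of exactly 2 peaks, or measuring edge to edge within 1000 bases left each value they were applied to within its interval. The median score ratio ran from 1.47 to 1.50 and the median gap from 127 to 162 bases. No paired analysis was possible because there was a single library of either kind. The list holds no read counts, so whether deeper sequencing would join or add peaks cannot be judged.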
